A study of Arabidopsis thaliana with 30 samples.

Results

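BCAT4 (AT3G19710), GTR1 (AT3G47960) and MGL (AT1G64660) are 3 genes of methionine-derived glucosinolate and methionine metabolism in Arabidopsis thaliana, followed here across the sample types of an auxin experiment on the root. They were chosen by measured values of these arrays. BCAT4 stood out for its mock level in the pericycle, MGL for its mock level in the stele, and GTR1 for an auxin response that differed between sorted tissues. The 3 genes were matched by locus in the probe annotation, 1 probe set each, among 13356 genes that the annotation names.

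All groups were Col-0 seedlings 1 week old, given 5 µM indole-3-acetic acid (IAA, the main natural auxin) or solvent alone (mock) for 2 h. Green fluorescent cells were sorted from 4 lines after 1 h of cell wall digestion: stele (pWOL::GFP), xylem-pole pericycle (enhancer trap E3754), epidermis with lateral root cap (pWER::GFP) and columella (enhancer trap PET111), so each tissue is what its reporter labels. Intact roots were not digested. With 3 mock and 3 auxin arrays for each of these 5 sample types there were 10 groups and 30 arrays. Digestion of treated roots went on in IAA, so sorted cells and intact roots differ in digestion, in sorting and in length of exposure, which cannot be told apart. The labels do not say whether the 3 replicates came from separate cultures, and the p-values measure the spread between these arrays, which may be technical.

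Glucosinolates are sulfur-rich defence compounds of the cabbage order. The methionine-derived (aliphatic) kind starts when BCAT4, an aminotransferase, removes the amino group of methionine so that its side chain can be lengthened; later enzymes build the glucosinolate core and modify the side chain. GTR1, like its relative GTR2, is a proton-coupled importer that takes up glucosinolates at the plasma membrane and moves them over long distances, and it has also been shown to carry gibberellin and jasmonoyl-isoleucine. MGL, methionine gamma-lyase, competes for the same amino acid by cleaving methionine to methanethiol, ammonia and 2-oxobutyrate, a precursor of isoleucine.

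Values are MAS5 signals on a linear scale, with array medians from 54.4 to 82.9. Tests were run on log2(signal + 16), a scale that understates changes at low signal, over 9322 genes; a gene is called at an adjusted p under 0.05, log2 differences are given ± standard error and mean signals ± SD (n = 3 arrays). The auxin genes GH3.3 and IAA29 were high in the auxin arrays of every sample type: GH3.3 averaged 6561 to 11982 there against 38.8 to 353 in mock groups. Of 25 marker genes for root tissues the annotation names 5, none of them for the stele, the pericycle or the columella, so those labels could not be checked. The summed signal of 2 of 6 epidermis markers, EXPA7 and EXPA18, was 508 to 708 in mock epidermis, 131 to 283 in mock stele, 97.0 to 327 in mock pericycle, 179 to 395 in mock columella and 1930 to 2161 in mock intact roots. It was 11.5 to 62.5 in the 12 auxin arrays of sorted cells and 1896 to 2157 in those of intact roots.

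BCAT4 had a high level in the pericycle and a low one in the other sorted tissues. Its signal in the pericycle was 1045, 819 and 576 on the mock arrays. On the auxin arrays of the pericycle it was 1498, 1053 and 1373. All 18 arrays of stele, epidermis and columella lay between 0.634 and 35.2, with or without auxin. The lowest pericycle array was thus 16.4 times the highest array of the other sorted tissues, and no array overlapped. Ranked among all probe sets of their arrays, those 18 values stood at percentiles 2.91 to 37.9 and the pericycle values at 86.6 to 95.2. No detection calls were used here, so the low values may hold little besides background.

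The mock difference, 4.78 ± 0.27 (log2) between the pericycle and the mean of the other sorted tissues, is what chose BCAT4 and carries no test. The auxin arrays had no part in that choice. There BCAT4 was higher in the pericycle by 5.52 ± 0.27 (adjusted p = 2.78e-18), and lower in the stele by 1.76 ± 0.27, in the epidermis by 2.09 ± 0.27 and in the columella by 1.67 ± 0.27, each against the mean of the other 3. The lower values each have the pericycle in their reference mean, so they largely restate its difference. Auxin means were 13.8 in the stele, 9.54 in the epidermis and 15.7 in the columella. The F-test over the 4 tissues gave an adjusted p of 6.10e-17. In the background, 55.3% of tested genes passed that F-test; 13.2% were called higher and 12.4% lower in the auxin-treated pericycle, 42.6% were called either way in the stele, 23.4% in the epidermis and 15.9% in the columella. Comparing tissues in auxin arrays was decided after the data had been seen.

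Endodermis and cortex markers also varied between sorted tissues, and in their sum the pericycle overlapped the columella. The sum of the 3 of 5 that are named (SGN3, CO2 and C1) was 431 to 606 in mock pericycle, 293 to 319 in mock stele, 135 to 270 in mock epidermis and 327 to 792 in mock columella. In auxin arrays it was 392 to 539 in the pericycle, 256 to 474 in the stele, 234 to 396 in the epidermis and 440 to 696 in the columella. CO2 itself stayed low in every group, with means from 7.47 to 20.5. The sum hides opposite directions of the other 2, none of them called in a single tissue named here: in the pericycle SGN3 had a mean of 194 in mock and 273 in auxin arrays, C1 of 299 and 151, and in the stele SGN3 had 186 and 311, C1 111 and 57.6. In mock columella C1 had a mean of 361 ± 278 and SGN3 of 110, against 299 and 194 in mock pericycle. The part of endodermis and cortex cells in the BCAT4 level was not tested.

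Intact roots, which hold all cell types, had a middle level of BCAT4. The mock arrays read 343, 365 and 289, and the auxin arrays 356, 122 and 148. Auxin replicate 1 lay among the mock arrays and the other 2 auxin arrays lay below all of them. The response was -0.77 ± 0.32 (95% interval -1.43 to -0.11, adjusted p = 0.132) and did not pass. Without auxin replicate 1 it was -1.20 with an adjusted p of 0.0165. The summed endodermis and cortex markers also differed between these groups, at 1138 to 1280 in mock and 412 to 533 in auxin arrays, and their part in the result was not tested. Fewer cells of a type and less RNA per cell cannot be told apart in such samples.

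In the pericycle itself every auxin array of BCAT4 exceeded every mock array, with means of 1308 ± 230 and 813 ± 234. The response of 0.70 ± 0.32 (95% interval 0.04 to 1.36) had an adjusted p of 0.155 and did not pass. The mock arrays in it are those that chose the gene. None of the other sorted responses was called, at 0.29 ± 0.32 in the stele, -0.14 ± 0.32 in the epidermis and -0.28 ± 0.32 in the columella. The mean over the 4 sorted tissues was 0.14 ± 0.16 (adjusted p = 0.506). Intact minus sorted response was -0.91 ± 0.36 (adjusted p = 0.104) and was called without intact auxin replicate 1 (-1.35, adjusted p = 0.0152) and with a pseudocount of 64 (-0.78, adjusted p = 0.0242).

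Ordered by level (mean of log2 values), BCAT4 ran from auxin pericycle to mock pericycle, then mock and auxin intact roots, whose arrays overlapped, and then the 6 groups of stele, epidermis and columella, in which each neighbour overlapped the next. Breaks without overlap lay after each pericycle group and after the intact roots.

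**Figure D1:**
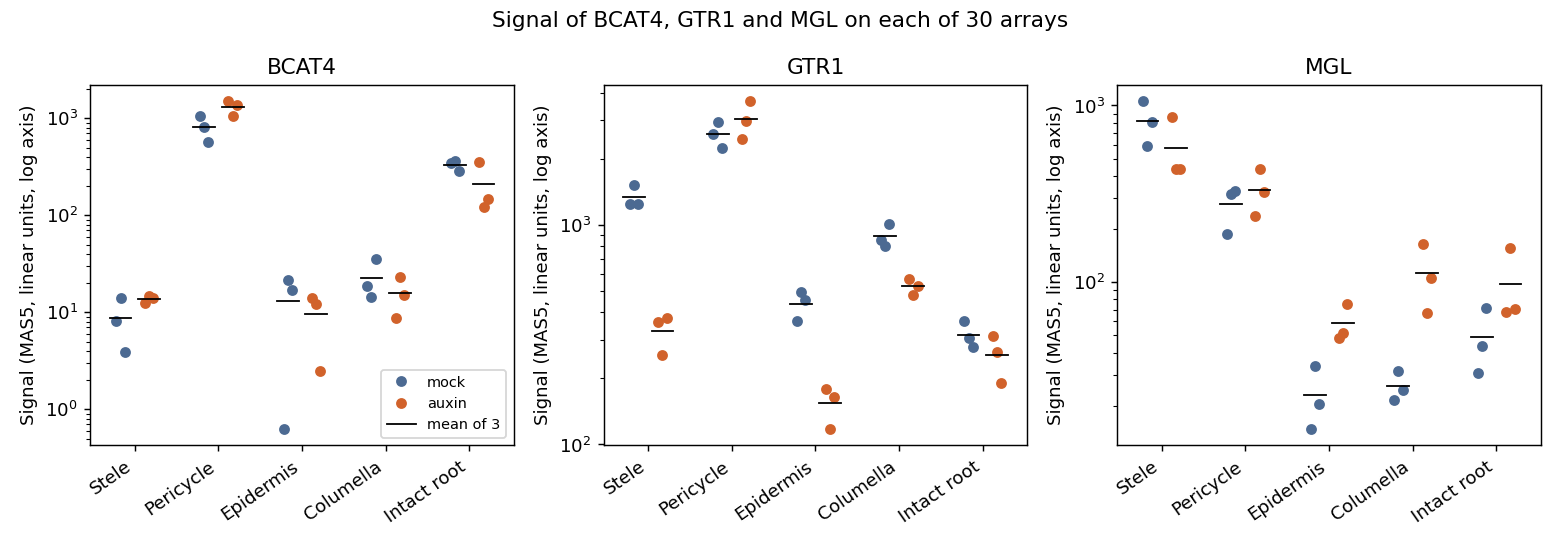
Signal (MAS5, linear units on a log axis) of BCAT4, GTR1 and MGL on each of the 30 arrays, by sample type; blue points are mock arrays, orange points auxin arrays and black lines the mean of 3. BCAT4 is high in the pericycle (576 to 1498) and at most 35.2 in the other sorted tissues; GTR1 in auxin-treated stele, epidermis and columella lies below all mock arrays of the same tissue while the pericycle and intact roots overlap; MGL is highest in the stele, and its auxin arrays lie above the mock arrays in epidermis and columella.

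GTR1 was found in every sample type, and its level was highest in the pericycle. Its percentile within an array was 61.4 at the lowest. In the pericycle the mock arrays read 2591, 2943 and 2232. The auxin arrays there read 2463, 2989 and 3662 and overlapped them. In the stele the mock arrays read 1252, 1527 and 1245. With auxin they read 360, 256 and 376, all far below.

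In mock arrays the epidermis and the columella had less of the transporter than the stele or the pericycle. Epidermis mock arrays read 365, 495 and 456, and auxin arrays 179, 118 and 164, again with no overlap. Columella mock arrays read 857, 802 and 1013, and auxin arrays 569, 479 and 528, also apart. These columella auxin arrays lay above every auxin array of the stele. Intact roots read 366, 305 and 278 without auxin and 311, 265 and 191 with it. The intact groups overlapped.

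Because the differing response chose GTR1, its responses in sorted tissues are given as a description only. The auxin mean was 4.06-fold lower than the mock mean in the stele, 2.85-fold in the epidermis and 1.69-fold in the columella, and was 1.17 times the mock mean in the pericycle. As a result the gap between pericycle and stele went from 1.93-fold in mock arrays to 9.19-fold in auxin arrays. Between pericycle and epidermis it went from 5.90-fold to 19.8-fold. The summed epidermis markers given above were lower in the auxin arrays of all 4 sorted tissues, the pericycle included, and their part in the GTR1 values was not tested. The share of genes called in the F-test of responses, the background of that choice, was 2.59%.

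The intact response of GTR1 was not part of the choice. It was -0.31 ± 0.21 (95% interval -0.73 to 0.11, adjusted p = 0.423), which did not pass. Intact minus mean sorted response was 0.67 ± 0.23, a difference that contains the responses that chose GTR1 and is given without a test.

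Mock levels of GTR1 between tissues were not themselves the choice, but the mock arrays are part of the responses that chose it. The tests below are therefore not independent of that choice. The pericycle was above the mean of the other 3 tissues by 1.66 ± 0.17 (adjusted p = 2.09e-09), where 8.09% of genes were called higher and 4.42% lower. The epidermis was below them by 1.70 ± 0.17 (adjusted p = 2.68e-09), with 8.14% of genes called higher and 10.3% lower. Neither the stele (0.41 ± 0.17, adjusted p = 0.0703; background 14.4% higher and 11.5% lower) nor the columella (-0.37 ± 0.17, adjusted p = 0.187; 9.23% either way) passed. The F-test over mock tissues gave an adjusted p of 5.54e-11 against a background of 35.1% of genes called.

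By level, GTR1 ran from auxin and mock pericycle, which overlapped, to mock stele and mock columella, each apart from its neighbours. Auxin columella, mock epidermis, auxin stele, mock intact and auxin intact roots then followed in a chain of overlapping neighbours, and auxin epidermis was lowest and apart.

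MGL was highest in the stele. There the mock arrays read 1056, 592 and 802 and the auxin arrays 862, 436 and 436, which overlapped. The pericycle came next, at 188, 315 and 328 without auxin and 238, 440 and 324 with it, overlapping too. Stele and pericycle mock arrays did not overlap, with a 2.95-fold gap of means.

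In the outer tissues MGL was low without auxin and higher with it. Columella mock arrays read 21.5, 31.5 and 24.6. Columella auxin arrays read 165, 67.3 and 106, all above the mock arrays. Epidermis mock arrays read 14.8, 33.7 and 20.4, and auxin arrays 48.5, 51.5 and 75.7, also all above. The 6 mock values stood at percentiles 30.6 to 39.1 of their arrays, below the array medians. As for BCAT4, such values may hold little besides background, so folds over them are uncertain in size.

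The columella response of MGL was 1.56 ± 0.32 (95% interval 0.90 to 2.21, adjusted p = 0.00122), a 4.36-fold rise of the mean, where 7.09% of all genes were called. It was called under all 41 settings tried. The epidermis response was 0.95 ± 0.32 (adjusted p = 0.0480; 5.95% of genes called higher and 6.82% lower), a 2.55-fold rise of the mean. That call was lost in 19 of 41 settings, with log2 values from 0.49 to 1.36. Leaving out epidermis mock replicate 1 or 3 gave adjusted p-values of 0.205 and 0.113, and leaving out auxin replicate 1, 2 or 3 gave 0.0511, 0.0797 and 0.213. Stele (-0.52 ± 0.32, adjusted p = 0.240; background 14.2% higher, 10.1% lower) and pericycle (0.26 ± 0.32, adjusted p = 0.664; 12.3% either way) did not pass. The mock arrays in these responses are those on which MGL was chosen for its stele level, so the tests are not independent of that choice.

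Intact roots read 30.8, 43.8 and 71.9 without auxin and 67.5, 155 and 70.5 with it. The groups overlapped, and the response of 0.78 ± 0.32 (95% interval 0.12 to 1.43) had an adjusted p of 0.125. In intact roots 6.61% of genes were called higher and 5.34% lower, and none of BCAT4, GTR1 and MGL was among them. The mean over the 4 sorted tissues was 0.56 ± 0.16 for MGL (adjusted p = 0.00582), against 25.0% of genes called higher and 16.2% lower; with a pseudocount of 64 it was 0.29 and not called (adjusted p = 0.0530). Intact minus sorted response was 0.22 ± 0.36 (adjusted p = 0.783). Both comparisons use the sorted mock arrays on which MGL was chosen, so their tests are not independent of that choice. The sorted mean took in single responses from -0.52 in the stele to 1.56 in the columella.

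The ratio of group means between the stele and the outer tissues was smaller in the auxin arrays, over mock values that chose MGL and, outside the stele, were low. Stele over columella was 31.6-fold in mock arrays and 5.12-fold in auxin arrays; stele over epidermis was 35.5-fold and 9.87-fold. The stele mean was itself lower with auxin, at 578 ± 246 against 817 ± 232. The stele response minus the mean of the other 3 was -1.44 ± 0.37; this difference contains the mock contrast that chose MGL (3.40 ± 0.26, stele minus the others) and is given without a test. In the auxin arrays alone MGL was still higher in the stele, by 1.96 ± 0.26 (adjusted p = 3.84e-07), and lower in the epidermis, by 1.96 ± 0.26 (adjusted p = 7.02e-07). It was higher in the pericycle by 0.98 ± 0.26 (adjusted p = 0.00543) and lower in the columella by 0.98 ± 0.26 (adjusted p = 0.00982). The pericycle call was lost without its auxin replicate 2 (0.77, adjusted p = 0.0682), as was the columella call without its own auxin replicate 2 (-0.70, adjusted p = 0.154). The F-test over the auxin arrays gave an adjusted p of 4.92e-09.

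Ordered by level, MGL ran from mock stele through auxin stele and auxin pericycle to mock pericycle, each overlapping the next. After a gap came auxin columella, auxin intact, auxin epidermis, mock intact, mock columella and mock epidermis, again a chain of overlapping neighbours.

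**Figure D2:**
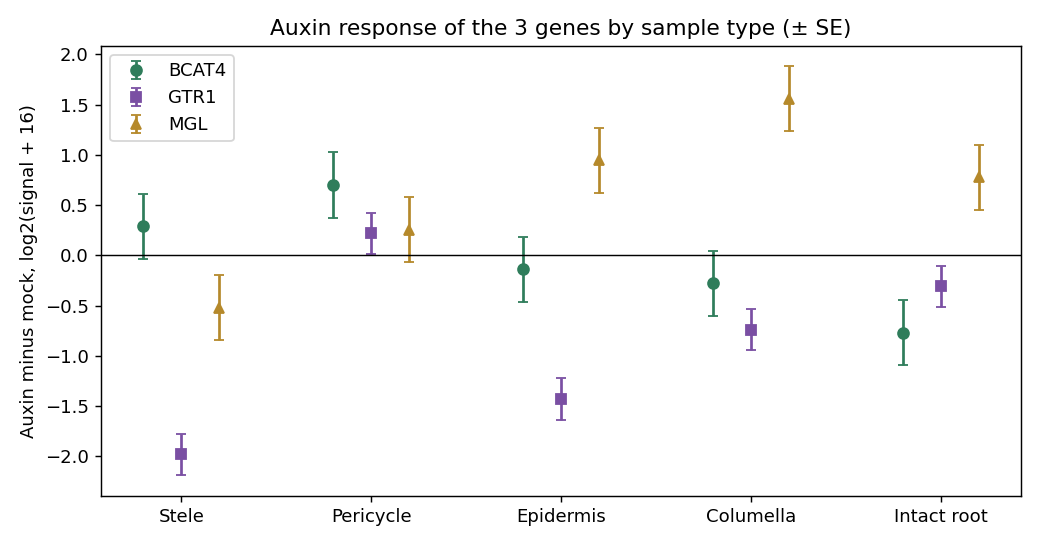
Auxin response (auxin minus mock, log2(signal + 16)) of BCAT4, GTR1 and MGL in the 5 sample types; points are fitted differences, bars ± 1 standard error. GTR1 is lowest in the stele (-1.98) and epidermis (-1.43) and near 0 in the pericycle, MGL is highest in the columella (1.56), and BCAT4 has its highest value in the pericycle (0.70) and its lowest in intact roots (-0.77).

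The 3 genes were chosen for different patterns, so how alike they are follows in part from the choice. Across the 10 group means Pearson's r was 0.53 for BCAT4 and GTR1, 0.15 for BCAT4 and MGL, and 0.47 for GTR1 and MGL. Across the 30 arrays after removing group means it was 0.40, -0.46 and 0.14 in the same order. These are descriptions of values that share arrays, the same that chose the genes. BCAT4 and GTR1 both had their highest level in the pericycle. Residual SDs (log2) were 0.419 for BCAT4, 0.236 for GTR1 and 0.438 for MGL, against a median of 0.347, so GTR1 was measured with the smallest spread of the 3.

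Other genes tracked each of them more closely. Over the 10 group means, BCAT4 was best matched by AT1G21440 (r = 0.985), AT3G45160, AT4G18250, AT3G01260 and AT1G67870 (r = 0.976). GTR1 was best matched by AT5G03030 (r = 0.977), AT3G57450, AT4G28400, AT1G76070 and HOS3-1 (r = 0.936). For MGL the list was AT5G01300 (r = 0.981), AT1G67720, AT5G58090, AT3G43270 and AT2G45460 (r = 0.950). Each is the top 5 of all tested genes, so high values are in the choice.

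Beyond the 3 genes, 101 further genes of glucosinolate and methionine metabolism were listed, of which the annotation names 13 and 12 were tested (the thioglucosidase BGLU28 was too low). The MYB regulators, the indolic glucosinolate enzymes and the sulfur starvation list had no named gene. In mock pericycle 3 of these 12 genes were higher than in the other sorted tissues and none was lower, where 8.09% of all genes were called higher and 4.42% lower. Their median was 0.25 (log2) against -0.02 over all genes. The 3 were GSTU20, a glutathione transferase of the aliphatic core pathway (2.38 ± 0.23, adjusted p = 1.23e-09), the importer GTR2 (1.54 ± 0.19, adjusted p = 1.51e-07) and GSL-OH, a dioxygenase that hydroxylates an aliphatic side chain (1.35 ± 0.18, adjusted p = 5.15e-07). GSTU20 averaged 318 ± 97.9 there and 38.7 to 67.3 in the other mock tissues.

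In mock epidermis 5 of the 12 were lower and none was higher (all genes, 10.3% lower and 8.14% higher), with a median of -0.32 against -0.04 over all genes. GTR2 (-1.15), GSTU20 (-1.10) and GSL-OH (-1.07) were joined by CBL, the cystathionine beta-lyase of methionine synthesis (-0.59), and HMT1, a homocysteine methyltransferase (-0.41). The CBL call (adjusted p = 0.0367) held in 32 of 41 settings and the HMT1 call (adjusted p = 0.0484) in 15 of 41. In mock stele 3 were higher and 3 lower (all genes, 14.4% and 11.5%), with a median of 0.01 against 0.08. CBL was higher by 1.06 ± 0.20, while UGT74C1, a glucosyltransferase of the aliphatic branch, was lower by 1.02 ± 0.30. The F-test over mock tissues called 7 of the 12, against 35.1% of all genes.

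The same comparison was made in the auxin arrays. In the auxin-treated pericycle 4 of 12 were higher and 2 lower (all genes, 13.2% and 12.4%), with a median of 0.38 against -0.05 over all genes. GSL-OH (2.36 ± 0.18), GSTU20 (1.83 ± 0.23) and GTR2 (1.68 ± 0.19) were higher than in the other tissues, as was AOP3, a side-chain dioxygenase (1.00 ± 0.28). The AOP3 signals were low, at 53.3 ± 23.6 in auxin pericycle (mean percentile 41.1) and 13.2 to 26.0 as means in the other auxin-treated sorted tissues. MMT, which methylates methionine itself, and BCAT5, a branched-chain aminotransferase, were lower, by 0.57 and 0.56.

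**Figure D3:**
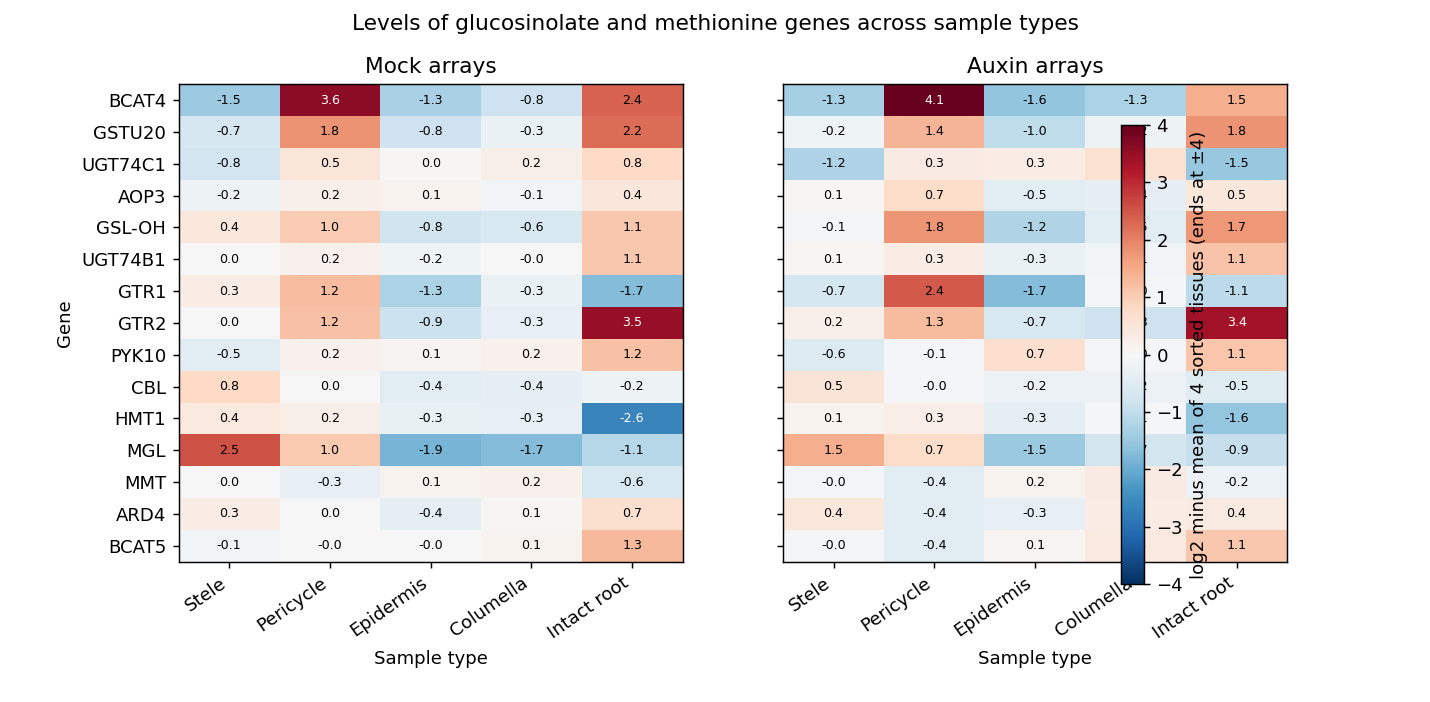
Mean level of BCAT4, GTR1, MGL and the 12 other tested genes in each sample type, as log2(signal + 16) minus the mean of the 4 sorted tissues of the same treatment; mock arrays left, auxin arrays right, red higher and blue lower. The pericycle column is red for BCAT4, GSTU20, GSL-OH, GTR1, GTR2 and MGL, among others, under both treatments. The intact root column is red for GTR2 where it is blue for GTR1.

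In the stele auxin raised 1 of the 12 genes and lowered 2, where 14.2% of all genes were called higher and 10.1% lower, so the count is near the background. GSTU20 rose by 1.21 ± 0.29 (adjusted p = 0.00222), from 43.0 ± 8.38 to 121 ± 21.0. GSL-OH fell by 1.30 on the log2 scale (adjusted p = 4.15e-05), from 848 ± 176 to 331 ± 8.73, and HMT1 fell by 0.69 (adjusted p = 0.00571). The median of the 12 was 0.09 against 0.14 over all genes. In the epidermis GSL-OH fell by 1.20 (adjusted p = 0.000119), and no other gene of the 12 was called (all genes, 5.95% higher and 6.82% lower); the median was 0.07 against 0.07.

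In the pericycle GSL-OH read 1273 ± 165 in mock and 1247 ± 169 in auxin arrays (-0.03 ± 0.22), and in the columella 405 ± 126 and 260 ± 84.3 (-0.61 ± 0.22, adjusted p = 0.0863). Its F-test of responses between tissues gave an adjusted p of 0.0339 and was the only one of the 12 to pass, where 2.59% of all genes passed. That call held in 30 of 41 settings. GTR2, the closest relative of GTR1 here, had a stele response of 0.07 ± 0.23 and an epidermis response of 0.10 ± 0.23. Its F-test did not pass (adjusted p = 0.426).

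In pericycle and columella limma called 0 of the 12 genes (12.3% and 7.09% of all genes), though 3 and 7 had an unadjusted p under 0.05. The share of all genes at that unadjusted level was not counted, so those counts have no background here. The medians were -0.13 against 0.07 in the pericycle and 0.08 against 0.05 in the columella. In intact roots, where 6.61% of all genes were called higher and 5.34% lower, UGT74C1 fell by 1.75 on the log2 scale (adjusted p = 0.000803), from 70.8 ± 2.62 to 12.2 ± 15.3, and HMT1 rose by 0.63 ± 0.18 (adjusted p = 0.0167). The HMT1 call was lost without mock replicate 1 (0.53, adjusted p = 0.107), mock replicate 2 (0.63, adjusted p = 0.0523) or auxin replicate 3 (0.54, adjusted p = 0.113).

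Over the sorted tissues together 3 of the 12 genes rose and 3 fell, with a median of -0.06 against 0.09; over all genes 25.0% rose and 16.2% fell, so the rises match the background share. GSTU20 (0.69 ± 0.14), UGT74C1 (0.57 ± 0.18) and CBL (0.38 ± 0.12) rose. GSL-OH, HMT1 and UGT74B1, a glucosyltransferase shared by both glucosinolate branches, fell by 0.78, 0.45 and 0.61. Of the 12, HMT1 was called higher and UGT74C1 lower in the difference between intact and sorted responses, where 5.27% of all genes were called higher and 5.82% lower.

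**Figure D4:**
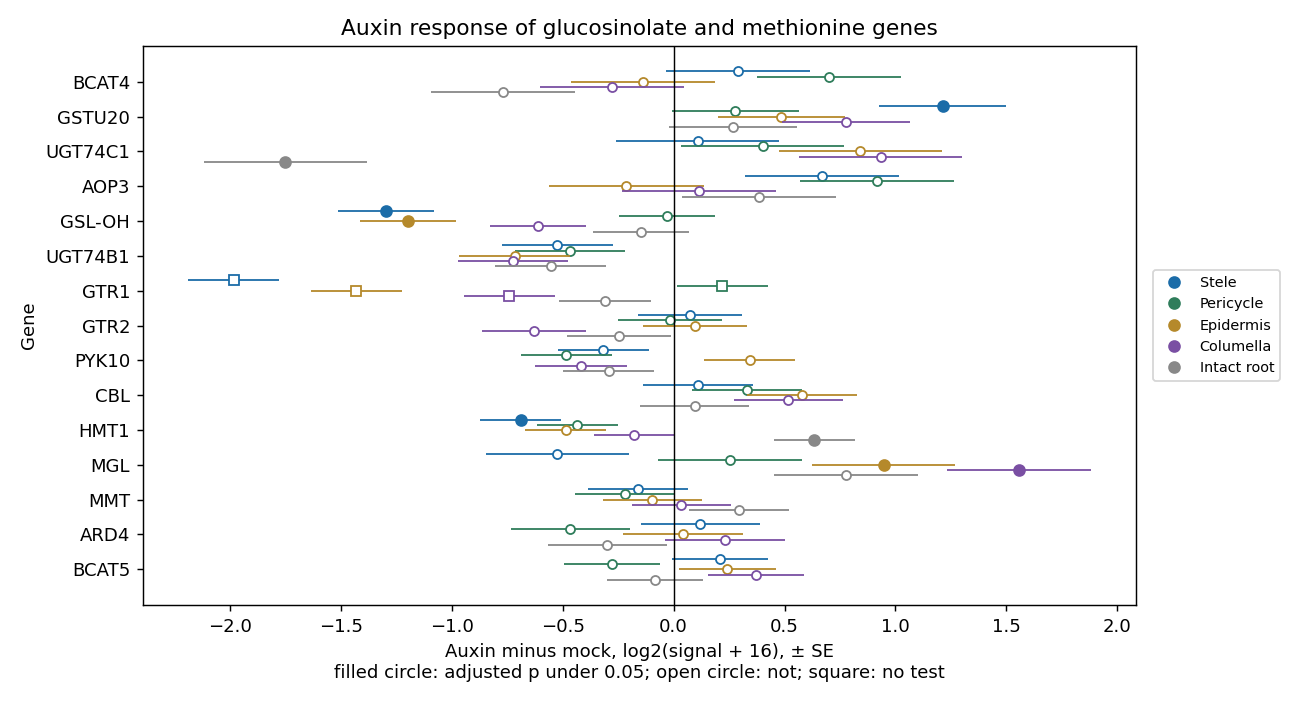
Auxin response (auxin minus mock, log2(signal + 16)) of the 3 genes and the 12 others in each sample type, with bars of ± 1 standard error; filled circles have an adjusted p under 0.05, open circles do not, and squares mark GTR1 in sorted tissues, which has no test. Most circles are open. MGL in columella (1.56) and epidermis, GSTU20 in stele (1.21) and GSL-OH in stele and epidermis are filled. HMT1 in stele and intact roots and UGT74C1 in intact roots (-1.75) are filled too.

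Sorted cells and intact roots differed in level without auxin for all 3 genes, in a comparison that called 30.2% of genes higher and 30.8% lower in sorted cells. BCAT4 was lower in the mean of the sorted tissues by 2.37 ± 0.26 (adjusted p = 5.06e-10). GTR1 was higher by 1.72 ± 0.16 (adjusted p = 1.85e-11) and MGL by 1.14 ± 0.26 (adjusted p = 0.000221). The sorted mock arrays in this comparison also entered the choice of the 3 genes, so the tests are not independent of that choice. For MGL only stele and pericycle had higher mock means, 817 and 277 against 48.8 in intact roots. Epidermis and columella had lower ones, 23.0 and 25.9. For GTR1 every sorted mock group had a higher mean than the 316 ± 45.1 of intact roots, with 8.18-fold in the pericycle. For BCAT4 the pericycle alone was above intact roots, by 2.45-fold in mock arrays and 6.27-fold in auxin arrays.

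Of the 12 other genes 2 were higher and 8 lower in sorted cells, with a median of -0.94 against 0.01 over all genes. GTR2 was lower by 3.48 ± 0.19 (adjusted p = 2.77e-18), with 1246 ± 237 in intact roots and 235 ± 33.7 in the pericycle, its highest sorted tissue, so the 2 transporters went in opposite directions. HMT1 was higher by 2.64 ± 0.14 (adjusted p = 6.00e-18) and GSTU20 lower by 2.22 ± 0.23 (adjusted p = 1.29e-10). The thioglucosidase PYK10, BCAT5, UGT74B1 and GSL-OH were lower by 1.17, 1.31, 1.09 and 1.09. The summed epidermis markers were also lower in sorted cells. Of the endodermis and cortex markers SGN3 was lower (-2.58, adjusted p = 1.24e-12), with means of 78.0 to 194 in mock sorted cells and 880 ± 163 in intact roots, while C1 ranged from 102 to 361 in sorted cells and was 318 ± 105 in intact roots (sorted minus intact -0.75, adjusted p = 0.0190), and CO2 was low in both. The part of cell composition in these differences was not tested.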

How the data were processed

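Small RNA samples were amplified, then labelled with biotin, per the labels' protocols. The authors deposited 1 intensity per probe set for every array; the submitters' processing notes name MAS5, with its version, chip definition and build not given in the sources used. Each array had been scaled so that its mean, without the lowest and highest 2% of 22810 probe sets, was 250.0. The annotation pairs 13513 probe sets with 1 gene, 503 with several and does not list 8730; 64 controls were left out. A gene's probe set of highest mean log2 signal was used, and genes were tested if above the 40th percentile of their array in at least 3 of 30 arrays.

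limma 3.58.1 (R 4.3.3) was fitted to log2(signal + 16) of 30 arrays with 10 group means and an intensity trend (20 residual degrees of freedom). Tests were two-sided with Benjamini-Hochberg adjustment over 9322 genes. The fit was tested on simulated data. Members and lists were chosen with earlier results of these data known. Named from each list were up to 4 called and 2 other genes, or all of lists with 6 or fewer measured, and the 5 genes most correlated with each member. The number of arrays limits precision. Alternatives covered pseudocount, scaling, filter, arrays fitted, weights, trend, replicate block, probe sets and each array left out. Figures used matplotlib 3.10.9 (Python 3.11.15).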

Additional observations from a re-analysis of the deposited data

Results flagged for a closer look

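The response of UGT74C1 in intact roots was lower than its mean response in sorted cells by 2.32 on the log2 scale (-2.32 ± 0.41, adjusted p = 0.000110), and the difference was itself tested. It fell in all 3 intact arrays below all mock arrays, while the auxin arrays of epidermis and columella lay above theirs. The mock signals were low, 14.9 to 70.8 as group means, and the value ran from -3.92 to -1.18 over the settings tried, called in each of the 39 that tested the gene.

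HMT1 differed the other way, with an intact response 1.08 ± 0.20 above the sorted mean (adjusted p = 0.000276), called in all 40 settings. Its 3 intact auxin arrays were above the mock arrays, and in stele and pericycle all auxin arrays were below.

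GSL-OH was picked out because its responses differed between the sorted tissues, with an adjusted p of 0.0339 in the F-test. Adjusted p over the settings ran from 0.0136 to 0.0837. No group had enough arrays to look for single outlying arrays.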

How the results depend on the processing

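No value of the 3 genes that was called changed direction in any setting. The BCAT4 calls in auxin arrays, the GTR1 mock calls and the MGL columella call held in all 41 settings. The GTR1 and MGL calls use mock arrays that also entered the choice of these genes, and no setting removes that. Over all contrasts and settings MGL lost 32 calls, GTR1 3 and BCAT4 2. Responses not called in the main setting were called in a few: BCAT4 in the pericycle with a pseudocount of 64 (0.67, adjusted p = 0.0335) and in intact roots with a pseudocount of 64 (-0.63, adjusted p = 0.0427) or array weights (-0.75, adjusted p = 0.0381), its intact minus sorted response with a pseudocount of 64 (-0.78, adjusted p = 0.0242), and MGL in intact roots with array weights (0.77, adjusted p = 0.0307). Outside replicates left out, the number of the 12 other genes called in the epidermis response became 2 with a pseudocount of 1 or the 60th-percentile filter and 4 with array weights, in the columella 2 with array weights, and in the pericycle 1 with a pseudocount of 64. The 60th-percentile filter left 1 for intact roots and 1 for intact minus sorted. The F-test of responses called 0 when fitted on the compared arrays alone or without the intensity trend. In the main setting it called 1, with 2 at an unadjusted p under 0.05, a level not counted over all genes. The share of all genes called was counted in the main setting only. Counts under other settings, left-out arrays included, thus have no background here. Leaving out single arrays gave 0 to 1 for the pericycle, 1 to 2 for the epidermis, 0 to 2 for the columella, 1 to 2 for intact roots, 2 to 3 for intact minus sorted, 0 to 1 for the F-test of responses, 5 to 7 for that of mock levels, 8 to 11 for that of auxin arrays and 8 to 10 for sorted minus intact; the causes were not tested.

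Replicate numbers paired arrays weakly: deviations of same-numbered mock and auxin arrays correlated at -0.01 to 0.38, over 0.1 in 6 of 15 pairs. Fitted as a random block, same-numbered arrays had a correlation of 0.126. The main fit left this out. With the replicate block the 12 genes had 2 calls in the epidermis and 1 in the columella, and 3 in the stele as before. The share of all genes called with that block was not counted.

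Quantile normalization moved the median response of all genes in the stele from 0.136 to 0.0374; centring on the 75th percentile moved that of sorted minus intact mock levels from 0.0147 to 0.146.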
